A study of Homo sapiens with 6 samples.

Results

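The genes described here are the glycosyltransferases that build and cap N-glycans, O-glycans and glycolipids. They were taken from the array's annotation by symbol: the families GALNT, GCNT, MGAT, B3GALT, B4GALT, B3GNT, ST3GAL, ST6GAL (with ST6GALNAC), ST8SIA and FUT, and GGTA1. Of the 18417 genes that had a probe set naming 1 gene, 82 were members, and each was read from its brightest probe set. By RefSeq's record 3 members are not protein-coding: B3GALT5-AS1 is a long non-coding RNA, and GCNT7 and MGAT4EP are transcribed pseudogenes. GALNT4 shared its probe set with a readthrough gene and was left out of the members.

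The samples were 6 cultures of H358, an established epithelial line of human non-small cell lung cancer. In 3 cultures the cells expressed green fluorescent protein (GFP) and in the other 3 they expressed TwistER, and every culture of both kinds received 100 nM 4-hydroxytamoxifen (4OHT) for 12 days. Fusions of this kind put the transcription factor Twist under the control of 4OHT through the hormone-binding part of the estrogen receptor. The titles call the GFP arrays before, and the TwistER arrays after, epithelial-mesenchymal transition (EMT). Both lines were treated, so the comparison sets one line against another under the same drug. Other ways in which the lines may differ cannot be told apart from the effect of active Twist. No source used here states whether each line is a clone, which promoter drives the insert or from which species Twist came. Values are log2 expression, with 3 arrays per group, and every difference is TwistER minus GFP.

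Mucin-type O-glycans start when a GALNT enzyme links N-acetylgalactosamine to serine or threonine, and GCNT and B3GNT enzymes then branch and lengthen the chain. N-glycans are branched in the Golgi by MGAT enzymes, galactose is added by B4GALT and B3GALT enzymes, and chains end in sialic acid (ST3GAL, ST6GAL, ST6GALNAC and ST8SIA enzymes) or fucose (FUT enzymes). Epithelial cells carry these ends on mucins, adhesion molecules and glycolipids, where they form the Lewis and ABO-related antigens and the gangliosides.

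The promoters of the members with the largest differences are shown first, since Twist binds E-boxes, the letters CANNTG. RefSeq's table (GRCh38.p14) held 101 start windows for 61 of the 82 members. Printed below are the 250 bases before the start of the called members that differed at least 2-fold and had a single window, and of ST6GALNAC5, the chromosomal neighbour of ST6GALNAC3 that moved the other way. Each reads 5′ to 3′ on the gene's strand, and capitals mark each match to CANNTG, which reads the same on both strands.
GALNT3, chr2:165794248-165794497, minus strand: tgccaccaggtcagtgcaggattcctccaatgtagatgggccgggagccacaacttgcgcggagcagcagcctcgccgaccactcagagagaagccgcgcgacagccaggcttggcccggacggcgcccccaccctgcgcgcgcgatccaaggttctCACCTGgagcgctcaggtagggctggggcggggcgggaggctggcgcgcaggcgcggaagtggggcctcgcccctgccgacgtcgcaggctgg
FUT9, chr6:96015724-96015973, plus strand: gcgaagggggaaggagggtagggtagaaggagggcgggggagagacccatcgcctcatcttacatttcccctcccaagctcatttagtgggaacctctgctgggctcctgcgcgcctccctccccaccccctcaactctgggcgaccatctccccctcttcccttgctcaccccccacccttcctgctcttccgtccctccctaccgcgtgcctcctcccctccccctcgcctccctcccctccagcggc
B3GNT5, chr3:183253003-183253252, plus strand: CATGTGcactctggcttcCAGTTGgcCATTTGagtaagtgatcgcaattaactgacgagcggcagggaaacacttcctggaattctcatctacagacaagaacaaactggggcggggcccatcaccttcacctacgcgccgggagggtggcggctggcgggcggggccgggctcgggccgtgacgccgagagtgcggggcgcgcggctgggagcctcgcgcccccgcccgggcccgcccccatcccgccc
GGTA1, chr9:121499845-121500094, minus strand: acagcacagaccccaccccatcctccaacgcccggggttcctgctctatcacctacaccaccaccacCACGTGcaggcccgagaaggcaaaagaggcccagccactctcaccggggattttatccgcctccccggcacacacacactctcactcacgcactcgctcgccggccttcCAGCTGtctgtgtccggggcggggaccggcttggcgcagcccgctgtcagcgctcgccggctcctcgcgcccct
ST6GALNAC3, chr1:76074496-76074745, plus strand: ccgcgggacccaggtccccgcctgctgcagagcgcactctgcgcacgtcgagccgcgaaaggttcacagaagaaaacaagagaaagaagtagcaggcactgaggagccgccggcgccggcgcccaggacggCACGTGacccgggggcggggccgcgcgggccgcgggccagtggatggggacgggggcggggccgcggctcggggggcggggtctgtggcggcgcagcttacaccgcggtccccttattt
ST6GALNAC5, chr1:76867230-76867479, plus strand: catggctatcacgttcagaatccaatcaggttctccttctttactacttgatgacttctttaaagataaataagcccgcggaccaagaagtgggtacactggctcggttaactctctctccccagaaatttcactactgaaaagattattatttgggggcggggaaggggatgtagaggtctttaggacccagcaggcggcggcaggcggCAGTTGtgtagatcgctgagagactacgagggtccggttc

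GALNT3, which fell, held 1 E-box, CACCTG, starting 93 bases before the start used for its window. RefSeq's record of GALNT3, on the minus strand, reaches base 165794692, so this window lies inside the gene's recorded bounds. The other printed windows lie just outside the bounds of their genes. The window of FUT9, which also fell, held 0 matches. B3GNT5, which fell, held 3, all between 250 and 224 bases before its start. GGTA1, which rose, held CACGTG and CAGCTG, and ST6GALNAC3, which rose, held CACGTG. ST6GALNAC5, which fell, held CAGTTG starting 40 bases before its start. Over all member windows 59.4% held at least 1 CANNTG, against 61.8% of the 35116 windows in the table. The forms CAGGTG and CACCTG, the same site read on opposite strands and both included in CANNTG, stood in 20.8% of member windows and in 17.5% of all windows. Among the windows of members that rose, 6 of 13 held CANNTG, and among those of members that fell, 10 of 15 did. These are matches of letters and not measured binding sites, and the start used in H358 was not measured.

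In TwistER cells GALNT3, an enzyme that starts O-glycans, was 4.25-fold lower, the branching enzyme GCNT2 was 2.13-fold lower, and the chain-extending enzymes B3GNT2 and B3GNT5 were 2.05-fold and 2.01-fold lower. The sialyltransferases ST6GALNAC3 and ST3GAL5 were 2.89-fold and 2.41-fold higher. GGTA1 rose and FUT9 fell, each by more than 2-fold as measured. In both genes the lower group lay at the level of background, so that no exact fold is given here. The higher group of FUT9, GFP, averaged 4.98 and so lay close to the background reference of 4.88 described below. Of the 7 members that rose, 6 were sialyltransferases. In limma's test, adjusted over all 18417 genes by Benjamini-Hochberg at a threshold of 0.05, 16 of the 82 members passed (19.5%), where 8.83% of all genes did. Rises numbered 7 (8.54% of members, 4.72% of all genes) and falls 9 (11.0% of members, 4.11% of all genes). Of the 82 members 9.76% were called and differed at least 2-fold, against 2.74% of all genes. The median difference of the members was 0.01, as was that of all genes, and the median absolute difference was 0.18 against 0.15. The groups did not overlap in 37 members (45.1%), against 28.4% of all genes. Fewer cells with a transcript and less transcript per cell cannot be told apart in such bulk RNA.

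**Figure D1:**
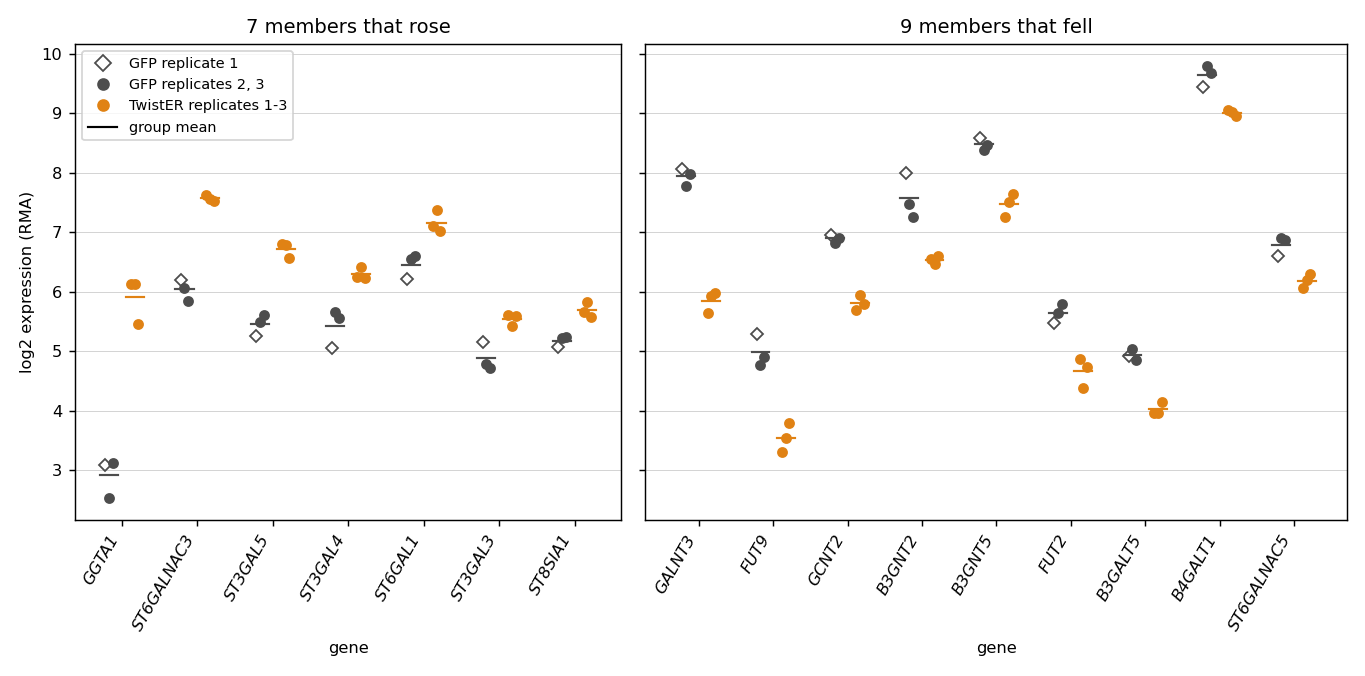
Log2 expression on each array (vertical axis) of the 7 members that rose and the 9 that fell (horizontal axis), with short lines for group means and an open diamond for GFP replicate 1. In each gene the 3 TwistER arrays lie wholly above or wholly below the 3 GFP arrays (GGTA1, for example, with group means of 2.91 and 5.90).

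Some facts of the whole set of arrays bear on these values. GFP replicate 1 stood apart: it correlated with the other GFP arrays at r = 0.982 over genes, while GFP replicates 2 and 3 correlated at r = 0.996. Without it 22 members passed, where 15.1% of all genes did; 9 of these rose (6.97% of all genes) and 13 fell (8.09% of all genes). All 16 members called with 6 arrays were among these 22. The epithelial markers (CDH1, EPCAM, KRT8, KRT18, KRT19, KRT7, CLDN4 and CLDN7) averaged 8.4 to 9.0 in GFP and 6.7 to 6.8 in TwistER, and 6 of the 8 fell and 0 rose. Their part in the members' changes was not tested. Human TWIST1 did not pass (6.21, 6.20 and 6.62 in GFP; 6.30, 6.67 and 6.84 in TwistER; limma adjusted p = 0.457), and whether its probes can detect the insert is not known. Of 7 leukocyte markers, 6 lay at or under 4.88 in both groups, the 95th percentile of the 341 olfactory receptor genes, which a lung line is not expected to transcribe; 5 of 6 endothelial markers (PECAM1, VWF, CDH5, TEK and TIE1) and 4 of 7 fibroblast markers (COL1A2, DCN, PDGFRB and THY1) did too. Leukocyte markers averaged 3.91 to 3.95 in GFP and 3.95 to 4.14 in TwistER, endothelial ones 3.94 to 4.00 and 4.37 to 4.46, and fibroblast ones 4.85 to 4.95 and 4.98 to 5.06. Of these markers 2 endothelial and 2 fibroblast ones rose and 1 fibroblast one fell. The largest rises were 1.79 among the endothelial and 2.13 among the fibroblast markers, and the fibroblast fall was -1.63, in log2 units. The list averages do not show these changes. Of the leukocyte markers 0 passed in limma, with 1 at an unadjusted p under 0.05. By their mean over all arrays, 34 of the 82 members lay at or under that level and are called dim here. Differences of dim genes are compressed by background light. Where a called member was dim in 1 group, the brighter group's mean was also set against 4.88, as a cautious fold. The TwistER mean of GGTA1 was 2.04-fold above 4.88. The GFP means of FUT2, FUT9 and B3GALT5 were 1.69-fold, 1.07-fold and 1.04-fold above it. Because 4.88 comes from the probe sets of other genes, these folds are no strict bounds.

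Of the 17 enzymes that start mucin-type O-glycans, 1 passed (5.88%, against 8.83% of all genes), and the median difference of the 17 was 0.03. GALNT3, an epithelial GALNT that is known for protecting the hormone FGF23 from cleavage, read 8.06, 7.78 and 7.97 in GFP replicates 1 to 3 and 5.65, 5.93 and 5.97 in TwistER replicates 1 to 3. All TwistER arrays lay more than the whole range of either group below the GFP arrays, and the difference was -2.09 ± 0.13 SE (limma adjusted p = 4.56e-05). It kept its call with any array left out, at -2.17 to -1.99. The other 16 GALNT genes did not pass, with differences from -0.43 to 0.67. GALNT5 had the largest of these, reading 4.01, 4.28 and 4.08 in GFP and 4.43, 4.68 and 5.28 in TwistER (0.67 ± 0.21, limma adjusted p = 0.0875). Its groups did not overlap, TwistER replicate 3 was highest, and its mean is dim. GALNT13, a GALNT best known from neurons, read 7.55, 7.29 and 7.15 in GFP and 7.0, 6.96 and 6.74 in TwistER (-0.43 ± 0.14, limma adjusted p = 0.103). GALNT6 and GALNT18 did not pass with all 6 arrays, at -0.31 and -0.32 (limma adjusted p = 0.193 and 0.462). GALNT18 was dim and overlapped between groups. Both genes passed when GFP replicate 1 was left out, at -0.41 and -0.58 (limma adjusted p = 0.0377 and 0.0219). In that fit 17.6% of the 17 GALNT genes passed, near the 15.1% of all genes.

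**Figure D2:**
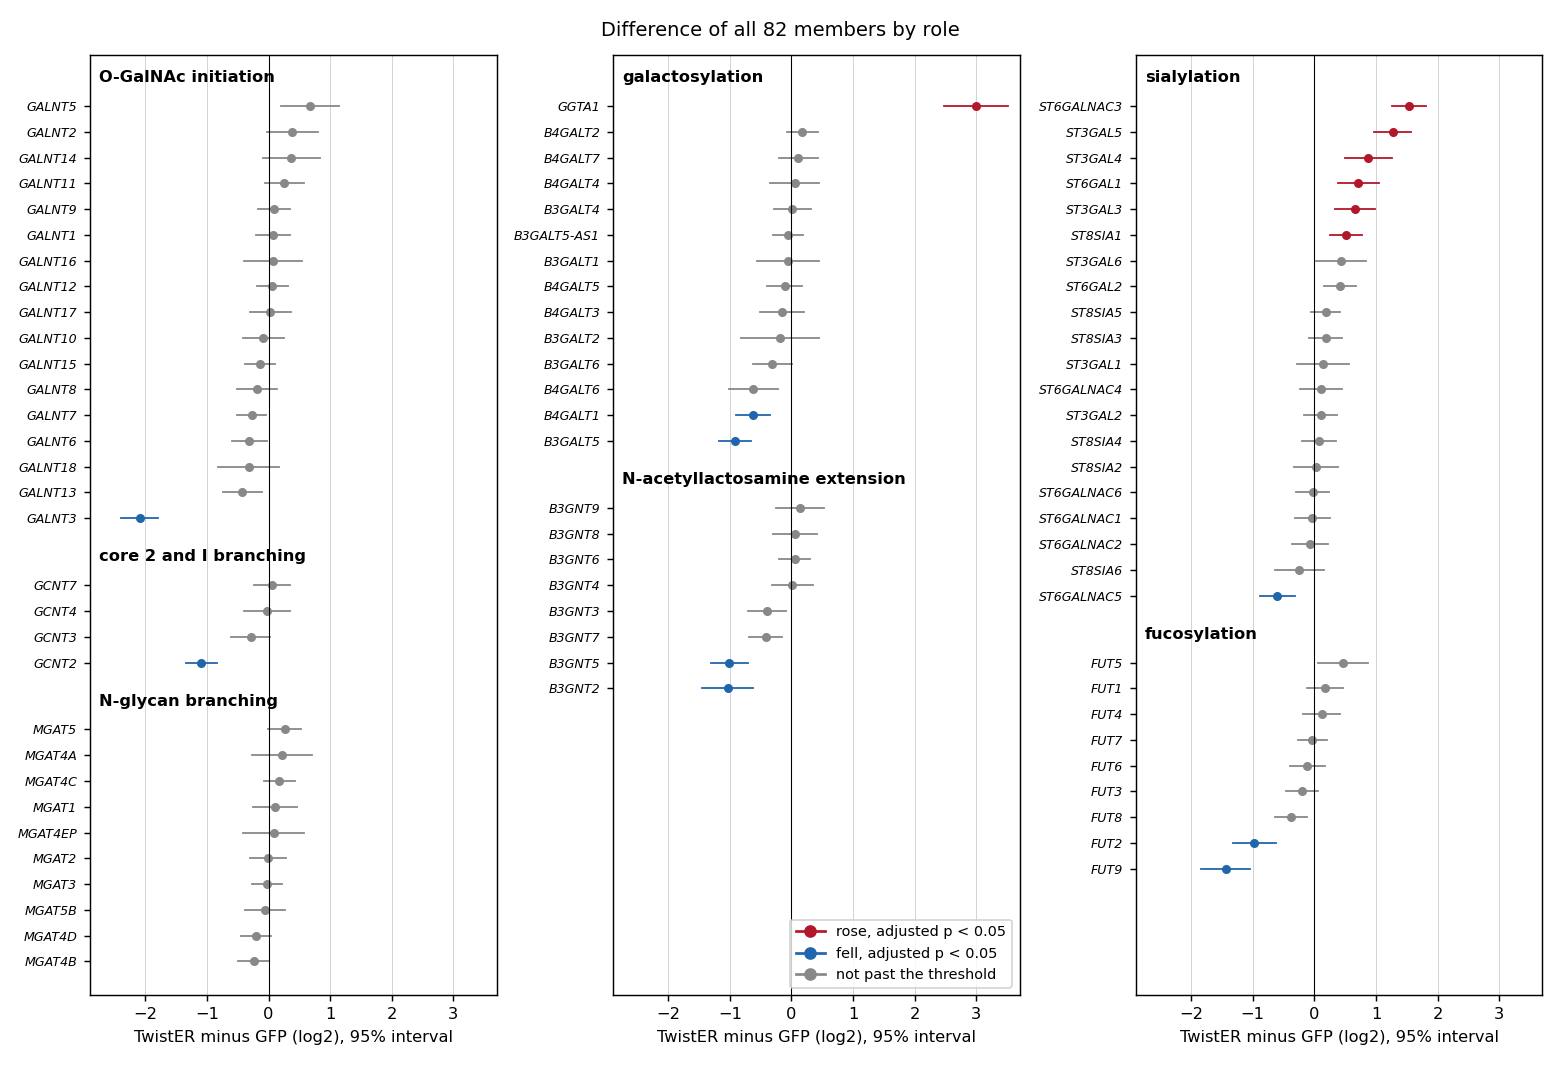
Difference of each of the 82 members, TwistER minus GFP in log2 units (horizontal axis), with limma's 95% interval, ordered within 7 roles (vertical axis); red genes rose, blue genes fell and grey genes did not pass an adjusted p of 0.05. The intervals of all 10 N-glycan branching genes cross 0; of the 20 sialyltransferases 8 have intervals wholly above 0, of which 6 passed the adjusted threshold, and 1 has an interval wholly below 0.

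Among the enzymes that branch and lengthen lactosamine chains, 1 of 4 GCNT genes and 2 of 8 B3GNT genes fell, against 4.11% of all genes, and 0 rose. GCNT2, which makes the branched I antigen, read 6.95, 6.82 and 6.90 in GFP and 5.68, 5.94 and 5.79 in TwistER. The groups were tight and far apart, with a difference of -1.09 ± 0.11 (limma adjusted p = 0.000619). Its relatives GCNT3, GCNT4 and the pseudogene GCNT7 did not pass, at -0.29, -0.03 and 0.06. B3GNT2, the main synthase of poly-N-acetyllactosamine, read 7.99, 7.46 and 7.26 in GFP and 6.55, 6.46 and 6.60 in TwistER. GFP replicate 1 was its highest array, and the difference of -1.04 ± 0.18 (limma adjusted p = 0.00872) was -0.83 without that array. B3GNT5, which starts the lacto and neolacto glycolipids, read 8.58, 8.39 and 8.46 in GFP and 7.25, 7.50 and 7.65 in TwistER, a difference of -1.01 ± 0.13 (limma adjusted p = 0.00198). Both B3GNT calls held with any array left out, with a highest limma adjusted p of 0.0495 for B3GNT2 and 0.0131 for B3GNT5. The other 6 B3GNT genes had differences from -0.42 to 0.13. Of these, B3GNT7 (-0.42 ± 0.12, limma adjusted p = 0.0665) passed without GFP replicate 1, at -0.49.

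In limma 0 of the 10 MGAT genes, which branch N-glycans, passed, and 0 had an unadjusted p under 0.05. With 8.83% of all genes called, 0 of 10 is near the background. Their differences ran from -0.24 in MGAT4B to 0.26 in MGAT5. MGAT5, which adds the branch that carries polylactosamine and is often studied in invasive tumours, read 5.37, 5.50 and 5.22 in GFP and 5.74, 5.57 and 5.56 in TwistER, with an interval of -0.01 to 0.53. Its groups did not overlap, and the difference did not pass (limma adjusted p = 0.259). MGAT3, the enzyme of the bisecting branch, read 4.91, 4.92 and 5.07 in GFP and 4.92, 5.03 and 4.89 in TwistER, with an interval of -0.26 to 0.23. Its groups overlapped. Of the 10 MGAT genes 4 were dim.

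Of the 14 entries for galactosyltransferases, 1 rose and 2 fell, against 4.72% and 4.11% of all genes. GGTA1 encodes the enzyme that makes the alpha-gal epitope in most mammals, an activity that humans have lost. It read 3.08, 2.53 and 3.12 in GFP and 6.13, 6.13 and 5.45 in TwistER. The GFP arrays were dim and the TwistER arrays were not, and the difference was 2.99 ± 0.22 (limma adjusted p = 0.000110), between 2.80 and 3.22 with any array left out. B4GALT1, which adds the galactose of lactosamine, was bright in both groups, at 9.44, 9.80 and 9.67 in GFP and 9.05, 9.01 and 8.96 in TwistER. Its difference of -0.63 ± 0.12 passed (limma adjusted p = 0.0151), and it lost that call without GFP replicate 2 or 3 or any TwistER array, with a highest limma adjusted p of 0.0707. B3GALT5, which makes the type 1 chains of Lewis a and sialyl Lewis a, read 4.91, 5.04 and 4.86 in GFP and 3.96, 3.97 and 4.14 in TwistER. Its TwistER arrays were dim, and the difference was -0.91 ± 0.11 (limma adjusted p = 0.00144). The antisense RNA beside it, B3GALT5-AS1, differed by -0.06 ± 0.11 (limma adjusted p = 0.831). B4GALT6, a lactosylceramide synthase, read 5.96, 5.78 and 5.60 in GFP and 5.13, 4.86 and 5.49 in TwistER, and did not pass (-0.62 ± 0.17, limma adjusted p = 0.0673). It passed without TwistER replicate 3, its highest TwistER array, at -0.78 (limma adjusted p = 0.0390). In every other fit with an array left out it did not pass (highest limma adjusted p = 0.225). Without GFP replicate 1 its difference was -0.53 (limma adjusted p = 0.104). The other 9 genes of this role lay between -0.31 and 0.18.

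Sialyltransferases held most of the rises: of 20 genes, 6 rose (30.0%, against 4.72% of all genes), 1 fell and the other 13 missed the threshold. Their median difference was 0.16, and 10 of the 20 were dim. Of the 20 differences 15 were positive, as were 9412 of those of all 18417 genes. After median centring or cyclic loess of the arrays 14 of the 20 were positive. ST6GALNAC3, which sialylates the N-acetylgalactosamine of gangliosides and O-glycans, read 6.20, 6.06 and 5.85 in GFP and 7.63, 7.55 and 7.52 in TwistER, a difference of 1.53 ± 0.12 (limma adjusted p = 0.000151). The TwistER arrays lay close together and far above the GFP arrays. The second probe set of this gene gave 1.28 ± 0.13 (limma adjusted p = 0.000516 over all probe sets of 1 gene). ST6GALNAC5, a related ganglioside enzyme, read 6.60, 6.90 and 6.86 in GFP and 6.06, 6.19 and 6.29 in TwistER and fell by 0.60 on the log2 scale (limma adjusted p = 0.0196). Its second probe set differed by -0.54 ± 0.12. The call of ST6GALNAC5 was lost without GFP replicate 2 or 3 or TwistER replicate 1 or 2, with a highest limma adjusted p of 0.0911. In RefSeq's order ST6GALNAC3 and ST6GALNAC5 follow each other on chromosome 1 with 0 coding genes between them, so neighbours were called in opposite directions. The other 4 ST6GALNAC genes differed by between -0.07 and 0.10 and did not pass.

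All 6 ST3GAL genes, which add sialic acid to galactose in alpha-2,3 linkage, had positive differences, also under second quantile normalization, median centring and cyclic loess. Positive differences were found in 9412 of all 18417 genes. Of the 6 ST3GAL genes 3 rose past the threshold, where 4.72% of all genes did. ST3GAL1 (0.13 ± 0.18, limma adjusted p = 0.756) and ST3GAL2 (0.10 ± 0.12, limma adjusted p = 0.698) differed by less than their SE. Both genes were dim and overlapped between groups. ST3GAL5, the synthase of the ganglioside GM3, read 5.25, 5.48 and 5.62 in GFP and 6.80, 6.78 and 6.57 in TwistER, and rose by 1.27 ± 0.13 (limma adjusted p = 0.000639). Every TwistER array was above every GFP array by more than the range within either group. ST3GAL4, which caps lactosamine chains, read 5.05, 5.65 and 5.56 in GFP and 6.25, 6.41 and 6.22 in TwistER, with GFP replicate 1 lowest (0.87 ± 0.17, limma adjusted p = 0.0133). ST3GAL3, which acts on similar chains, read 5.16, 4.78 and 4.72 in GFP and 5.61, 5.42 and 5.59 in TwistER, with GFP replicate 1 highest (0.65 ± 0.14, limma adjusted p = 0.0240). ST3GAL4 lost its call without TwistER replicate 1, 2 or 3 (highest limma adjusted p = 0.0717), and ST3GAL3 in each fit that lacked an array, except the one lacking GFP replicate 1 (highest limma adjusted p = 0.101). ST3GAL6 read 4.48, 3.90 and 4.08 in GFP and 4.43, 4.48 and 4.85 in TwistER, was dim, overlapped between groups and did not pass (0.43 ± 0.18, limma adjusted p = 0.206). Without that array it passed at 0.60 (limma adjusted p = 0.0363).

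ST6GAL1, the enzyme of alpha-2,6 sialic acid on N-glycans, read 6.22, 6.54 and 6.59 in GFP and 7.09, 7.37 and 7.02 in TwistER, a difference of 0.71 ± 0.15 (limma adjusted p = 0.0192). The groups did not overlap, and the call was lost without TwistER replicate 1 or 2 (highest limma adjusted p = 0.0886). ST6GAL2, the other member of that family, differed by 0.41 ± 0.12, was dim and did not pass (limma adjusted p = 0.0650). It passed without GFP replicate 1, at 0.45 (limma adjusted p = 0.0330). ST8SIA1, which turns GM3 into GD3, read 5.07, 5.22 and 5.23 in GFP and 5.65, 5.83 and 5.58 in TwistER (0.51 ± 0.12, limma adjusted p = 0.0288). This was the smallest difference among the members called, and the call was lost when any 1 array except GFP replicate 1 was left out (highest limma adjusted p = 0.133). A second, dimmer probe set of ST8SIA1 gave 0.81 ± 0.13 (limma adjusted p = 0.00507 over all probe sets of 1 gene). The other 5 ST8SIA genes, which include the polysialic acid synthases ST8SIA2 and ST8SIA4, were all dim and did not pass, with differences from -0.24 to 0.18.

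Of 9 fucosyltransferases 2 fell, where 4.11% of all genes did, and 6 of the 9 were dim. FUT9, which makes the Lewis x antigen, read 5.29, 4.77 and 4.90 in GFP and 3.30, 3.55 and 3.79 in TwistER, a difference of -1.44 ± 0.17 (limma adjusted p = 0.00134). FUT2, the secretor enzyme that makes the H antigen of epithelia, read 5.47, 5.65 and 5.79 in GFP and 4.86, 4.39 and 4.73 in TwistER, a difference of -0.98 ± 0.15 (limma adjusted p = 0.00491). Both were dim in TwistER and kept their call with any array left out. FUT1, the H enzyme of red cells, lies 3 coding genes from FUT2 on chromosome 19 and differed by 0.17 ± 0.13 (limma adjusted p = 0.517). FUT8, which adds the core fucose of N-glycans, was bright in both groups, at 8.96, 9.15 and 9.14 in GFP and 8.61, 8.75 and 8.76 in TwistER. Its groups did not overlap, and its difference of -0.38 ± 0.11 did not pass (limma adjusted p = 0.0783), but passed at -0.44 without GFP replicate 1 (limma adjusted p = 0.0214). FUT3, FUT5 and FUT6 are closely related genes that lie side by side and may share probes. FUT5 read 4.05, 4.52 and 4.62 in GFP and 4.72, 5.10 and 4.75 in TwistER, without overlap (0.46 ± 0.18, limma adjusted p = 0.171), and FUT3 and FUT6 differed by -0.21 and -0.12. All 3 were dim and did not pass.

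**Figure D3:**
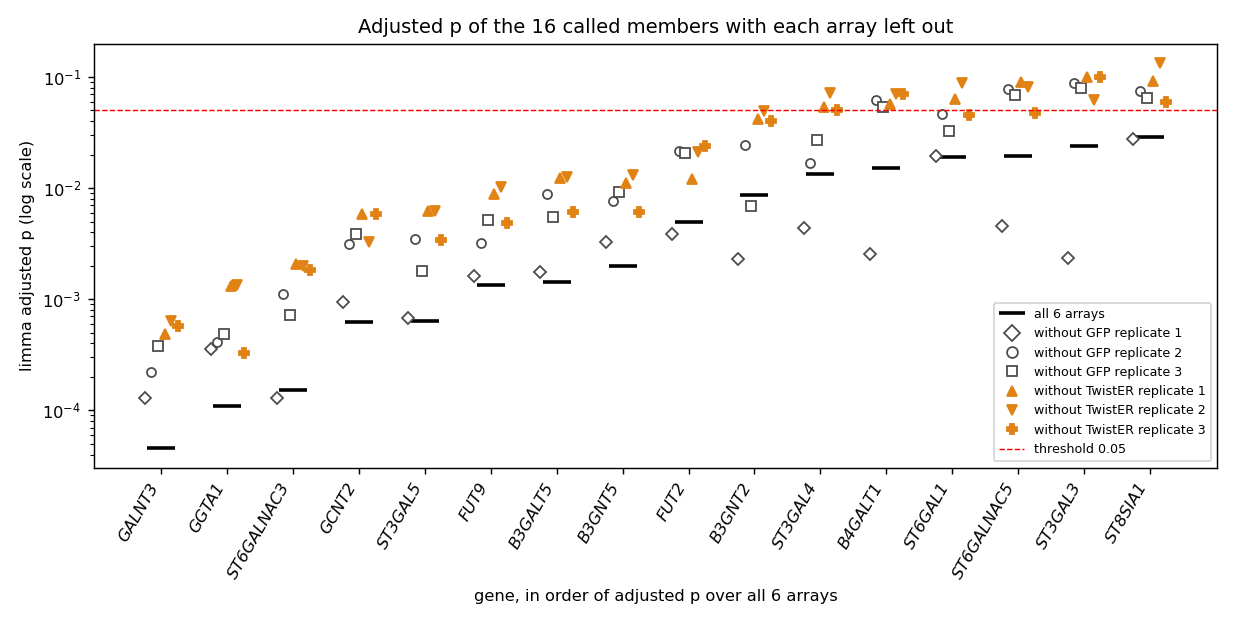
limma adjusted p (vertical axis, log scale) of the 16 called members (horizontal axis) over all 6 arrays (black bars) and with each array left out in turn (symbols), with the threshold of 0.05 as a dashed line. The first 10 genes stay under the line in every fit; the last 6, from ST3GAL4 to ST8SIA1, cross it in at least 1.

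Leaving out each array in turn divided the calls by size. GALNT3, GGTA1, ST6GALNAC3, GCNT2, ST3GAL5, FUT9, B3GALT5, B3GNT5, FUT2 and B3GNT2 were called in all 6 such fits, and the other 6 lost their call in at least 1. Members called numbered 12 without GFP replicate 2 or 3, where 5.77% and 6.50% of all genes were called. Without TwistER replicate 1 or 2 they numbered 10 (4.95% and 4.51% of all genes). They numbered 13 without TwistER replicate 3 (5.08% of all genes) and 22 without GFP replicate 1 (15.1%). The share of all genes called thus also moved between these fits. The rises fell to 3 without TwistER replicate 1 or 2 (GGTA1, ST6GALNAC3 and ST3GAL5) and to 4 without TwistER replicate 3. Of the 6 rising sialyltransferases, ST6GALNAC3 and ST3GAL5 were thus the ones called in every fit.

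Glycolipids, on which several of these enzymes act, were not measured. Of the 9 measured genes of glycolipid synthesis and breakdown outside these families, 0 passed in limma and 1 had an unadjusted p under 0.05, with differences from -0.30 to 0.35.

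The other genes of the same pathways were read with all 6 arrays and without GFP replicate 1. In 8 lists of such genes, with 144 entries of which 128 were measured, the test found 4 that rose and 2 that fell (4.69%, against 8.83% of all genes). Without GFP replicate 1, 10 rose and 8 fell (14.1%, against 15.1% of all genes), so that the lower share was not seen without that array. MAN1A1, a Golgi mannosidase that trims N-glycans before branching, rose 3.46-fold, from 6.17, 6.10 and 6.04 in GFP to 7.92, 7.96 and 7.81 in TwistER (1.79 ± 0.11, limma adjusted p = 2.94e-05). It was 1 of 20 genes of precursor transfer and trimming, where 1 rose and 0 fell. In sugar nucleotide supply 2 of 27 rose and 2 fell. SLC35A1, the transporter that brings CMP-sialic acid into the Golgi, read 7.92, 7.27 and 7.25 in GFP and 6.84, 6.64 and 6.26 in TwistER, and fell 1.87-fold (-0.90 ± 0.21, limma adjusted p = 0.0351). It lost that call without GFP replicate 2 or any TwistER array (highest limma adjusted p = 0.136). GMDS, the first enzyme of GDP-fucose synthesis, fell 1.80-fold (-0.84 ± 0.12, limma adjusted p = 0.00267), in every fit with an array left out. UGP2 and GALT, enzymes of UDP-sugar metabolism, rose 1.48-fold and 1.33-fold (limma adjusted p = 0.0321 and 0.0448), and the ganglioside sialidase NEU3 rose 1.37-fold (limma adjusted p = 0.0429). These 3 calls were lost in each fit that lacked an array, except the one lacking GFP replicate 1, with highest limma adjusted p of 0.131, 0.163 and 0.168.

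**Figure D4:**
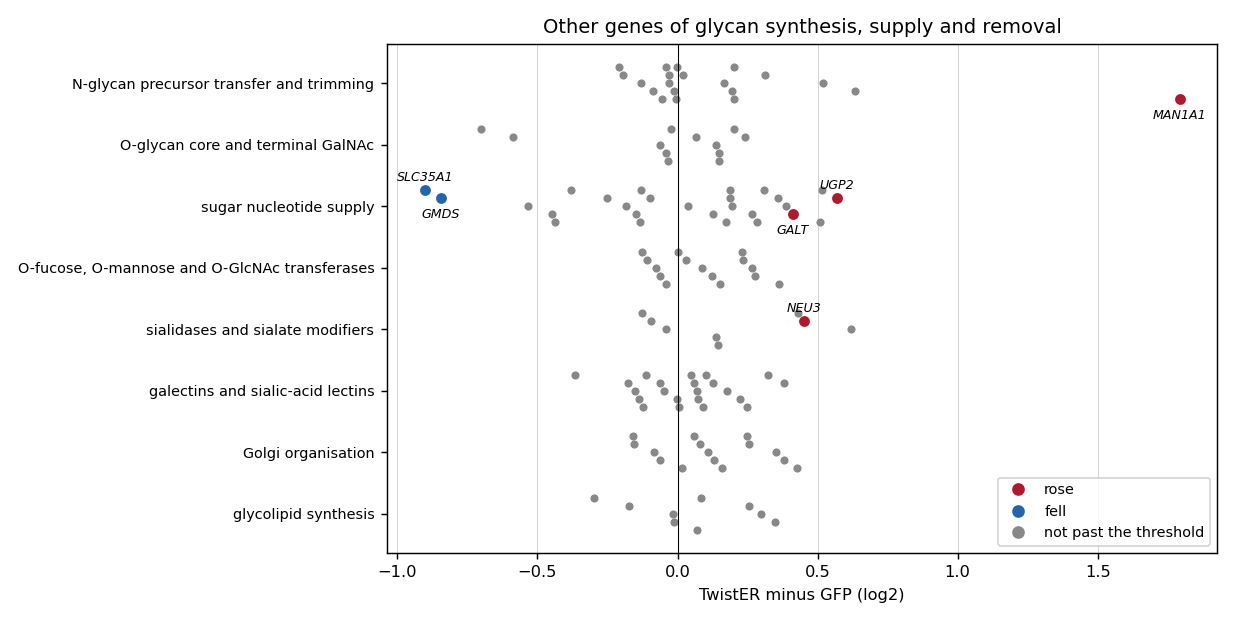
Difference of the 128 measured genes of 8 lists outside the member families, TwistER minus GFP in log2 units (horizontal axis), by list (vertical axis, points spread for view); labelled genes passed an adjusted p of 0.05. MAN1A1 at 1.79 lies far from all others, and SLC35A1 and GMDS mark the lower end.

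In the lists of O-glycan core enzymes (12 genes), O-fucose, O-mannose and O-GlcNAc transferases (15), lectins (22) and Golgi organisation (15), 0 genes passed in limma, and 3, 2, 1 and 3 had an unadjusted p under 0.05. The core 1 synthase C1GALT1, which acts next after the GALNT enzymes, and its chaperone C1GALT1C1 differed by -0.59 ± 0.20 and -0.70 ± 0.19, with limma adjusted p of 0.129 and 0.0581. C1GALT1C1 passed without GFP replicate 1 or GFP replicate 3, at -0.49 without the first of these (limma adjusted p = 0.0428). C1GALT1 passed in no fit with an array left out. Without GFP replicate 1, its highest array, its difference was -0.34 (limma adjusted p = 0.0753).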

How the data were processed

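Biotin-labelled cRNA from total RNA of the 6 cultures was read on Affymetrix arrays, as the labels describe. The deposited values are log2 expression by probe set, which the authors computed with RMA (per the submitters' processing notes; no source used here gives its settings). RMA makes the intensity distributions of the arrays alike, which hides any change in total RNA. Array medians ran from 4.95 to 5.03, and with 3 arrays a group precision is limited by their number. Of 33297 probe sets the platform annotation gave 19460 a single gene symbol, 1754 several and 12083 none; only the first were used, and a gene took its brightest probe set. Each column bears its sample's accession. The labels name no batch and call the arrays biological replicates without saying how cultures were separated, so a p-value reflects only how these samples varied.

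limma 3.58.1 (R 4.3.3; lmFit, then eBayes with 4.44 prior degrees of freedom) gave 2-sided tests, and Benjamini-Hochberg adjustment covered all 18417 genes. Named are all members past the threshold, the 5 largest differences among the others, members with separate groups at least 0.5 apart, and MGAT3, MGAT5 and FUT8. Other members given by name were added after their values were seen. The members and lists were chosen with earlier results of these data known. Alternatives were other normalizations, brightness filters at the 25th and 50th percentiles, other probe set choices, other variance models, array weights, the replicate block, thresholds of 0.01 and 0.10, and leaving out each array; fitting all probe sets together was added after seeing the data. In simulated data of 18417 genes with independent normal noise, limma called 96% of 100 genes shifted by 2 log2 units and 74% of 100 shifted by 1. Fewer genes were shifted there than were called in the real fit, so these rates need not hold for it. Python 3.11.15, pandas 2.3.3 and matplotlib 3.10.9 made tables and plots.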

Additional observations from a re-analysis of the deposited data

How the results depend on the processing

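All 16 member calls kept their direction, and all 16 stayed past the threshold, under second quantile normalization, median centring, cyclic loess, the filter at the 25th percentile, the mean of probe sets, the most variable probe set, a trended robust variance, array weights and the replicate block. Median centring shifted the median of all genes by -0.03 on the log2 scale, more than the other normalizations did. With the filter at the 50th percentile, 32 members were tested, of which 4 rose and 7 fell. Of all genes that this filter kept, 17.2% were called, and 7 pathway genes rose and 4 fell. B3GALT5, FUT2, FUT9, GGTA1, ST3GAL3 and ST8SIA1 were not tested there. With array weights 14 members fell, 8.42% of all genes rose and 9.32% fell, and 13 pathway genes rose and 7 fell. Median centring left 2 pathway genes that rose, and cyclic loess gave 7 that rose and 1 that fell. At an adjusted p under 0.01, 3 members rose, 2.56% of all genes rose and 1.82% fell, and 1 pathway gene rose and 1 fell. At 0.10, 6.47% of all genes fell, and 7 pathway genes rose and 5 fell.

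With 1 array left out, members that rose numbered 3 to 9 and members that fell 7 to 13. Of all genes 2.57% to 6.97% rose and 1.94% to 8.09% fell, and pathway genes that rose numbered 1 to 10 and those that fell 1 to 8. Fewer samples enter these fits. The difference of MGAT3 ran from -0.060 to 0.032 and so changed sign, without a call in any fit. Of 374 values of 24 named members under alternatives, 341 kept side and direction, 24 lost the call, 7 gained it and 2 changed sign. The causes of the moves under array weights and normalization were not tested.

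The replicate block left 7 members that rose and 9 that fell, and no member changed its call; the pathway genes were 3 that rose and 2 that fell. Whether equal numbers mark paired samples is not known. Deviations from group means correlated at 0.14, 0.02 and 0.16 for numbers 1, 2 and 3. For numbers 1 and 3 no other combination of these arrays correlated higher. GFP replicate 2 correlated better with TwistER replicate 3 (0.04) than with TwistER replicate 2.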

Other observations

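The probe set annotated to both GALNT4 and the readthrough gene POC1B-GALNT4, which was outside the members, read 5.30, 5.42 and 5.51 in GFP and 5.53, 5.89 and 5.64 in TwistER. The groups did not overlap, and the difference of 0.28 was not tested. All 3 probe sets of B3GALT4 repeated the same 6 values, as did both of ST6GALNAC2.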
